A study of Mus musculus with 12 samples.

Results

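The genes described here make, cut, bind or cross-link hyaluronan, and they were read in keratinocytes sorted from the edge of mouse skin wounds. The 9 members were chosen by their roles from the gene symbols of the count table, out of 55315 symbols: the synthases Has1, Has2 and Has3, the hyaluronidases Hyal1 and Hyal2, the receptor Cd44, and the matrix proteins Tnfaip6 (TSG-6), Ptx3 (pentraxin 3) and Vcan (versican). Results from these libraries were already known when the genes were picked, and no measured threshold selected them, so the tests below describe these libraries and are no independent support. All 9 members passed the filter on low counts and are among the 16677 genes tested.

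The 12 RNA-seq libraries formed 4 groups of 3: RORgt-deficient A5-POS, RORgt-deficient A5-NEG, WT A5-POS and WT A5-NEG. RORγt is a transcription factor that lymphocytes need to make IL-17, and the deficient mice carried a GFP knock-in. Every group came from a skin ring 0.25 mm wide beside the wound, taken on day 3, with 2 or 3 mice pooled for each group in each sequencing run; the sources used here give no ages and no other alleles. Live Epcam-positive, integrin α6-positive cells without CD45, CD31 or CD117 were divided by integrin α5 into A5-POS cells, which the study places in the migrating epithelial tongue, and A5-NEG cells of the wound edge behind it.

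Hyaluronan is a long sugar chain of the extracellular matrix, spun out through the plasma membrane by the synthases from UDP-glucuronic acid and UDP-N-acetylglucosamine. Hyaluronidases shorten it, CD44 holds it on the cell surface, and TSG-6 loads it with protein chains that pentraxin 3 can bridge, while versican binds it in swollen, provisional matrix. In skin, keratinocytes make much hyaluronan between the living epidermal layers, and wounding is known to raise its synthesis.

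Total counts ran from 29293687 to 74563616 per library. Itga5, which encodes integrin α5, ran from 107 to 137 CPM (counts scaled by library size) in RORgt-deficient A5-POS and from 47.4 to 61.3 CPM in RORgt-deficient A5-NEG libraries, and from 85.1 to 101 CPM in WT A5-POS and 42.2 to 52 CPM in WT A5-NEG libraries. Every A5-POS library was thus above every A5-NEG library. A summed level of 10 keratinocyte markers was high in all of them (37166 to 81517 CPM). A sum of 12 fibroblast markers ran from 10901 to 17756 CPM in RORgt-deficient A5-POS and 801 to 1836 CPM in RORgt-deficient A5-NEG libraries. It ran from 6346 to 9627 CPM in WT A5-POS and 1446 to 2131 CPM in WT A5-NEG libraries. These markers include Postn, which wound epithelium also makes. The sort as described used no fibroblast marker. Among the genes of the markers it excluded, Ptprc (CD45) was at 2.74 to 39.3 CPM and Kit (CD117) at 1.77 to 10.3 CPM. The macrophage list summed to 92.5 to 1429 CPM and the T cell list to 3.91 to 14.5 CPM. The Langerhans and dendritic cell list summed to 283 to 3213 CPM, with its highest sum in WT A5-NEG library 1. The endothelial list summed to 1.95 to 38.5 CPM, with Pecam1 (CD31) at 0.639 to 17 CPM and both at their highest in WT A5-POS library 1. In bulk libraries, fewer cells of a type and less RNA per cell cannot be told apart.

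Levels below are CPM scaled by TMM factors, with the standard deviation (SD) over 3 libraries. A change is a log2 fold change with its standard error (SE) from edgeR's quasi-likelihood F test, and a gene is called when its p, adjusted over all 16677 genes by Benjamini and Hochberg, is under 0.05. The replicate numbers pair the libraries, so the value of a second fit, in which the number is a block, stands beside the first wherever it changes a call.

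The members spanned nearly the whole range of expression. Per kilobase of exon, averaged over the 12 libraries, Cd44 was the most abundant (92.5 CPM per kb, rank 443 of 16677), followed by Tnfaip6 (57.6, rank 787), Hyal2 (18.6, rank 2625), Has1 (17.5, rank 2768) and Has2 (16.5, rank 2901). Hyal1 (7.36 CPM per kb), Has3 (1.98), Ptx3 (0.994) and Vcan (0.241) followed, with Vcan at rank 14062. Cd44, Hyal2 and Hyal1 were the steady members, with the highest library at 1.59, 1.8 and 1.91 times the lowest. Ptx3 and Tnfaip6 varied most, with ratios of 139 and 125, and Vcan had a ratio of 23.1; Has2, Has1 and Has3 lay between, at 4.61, 5.26 and 7.18.

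**Figure D1:**
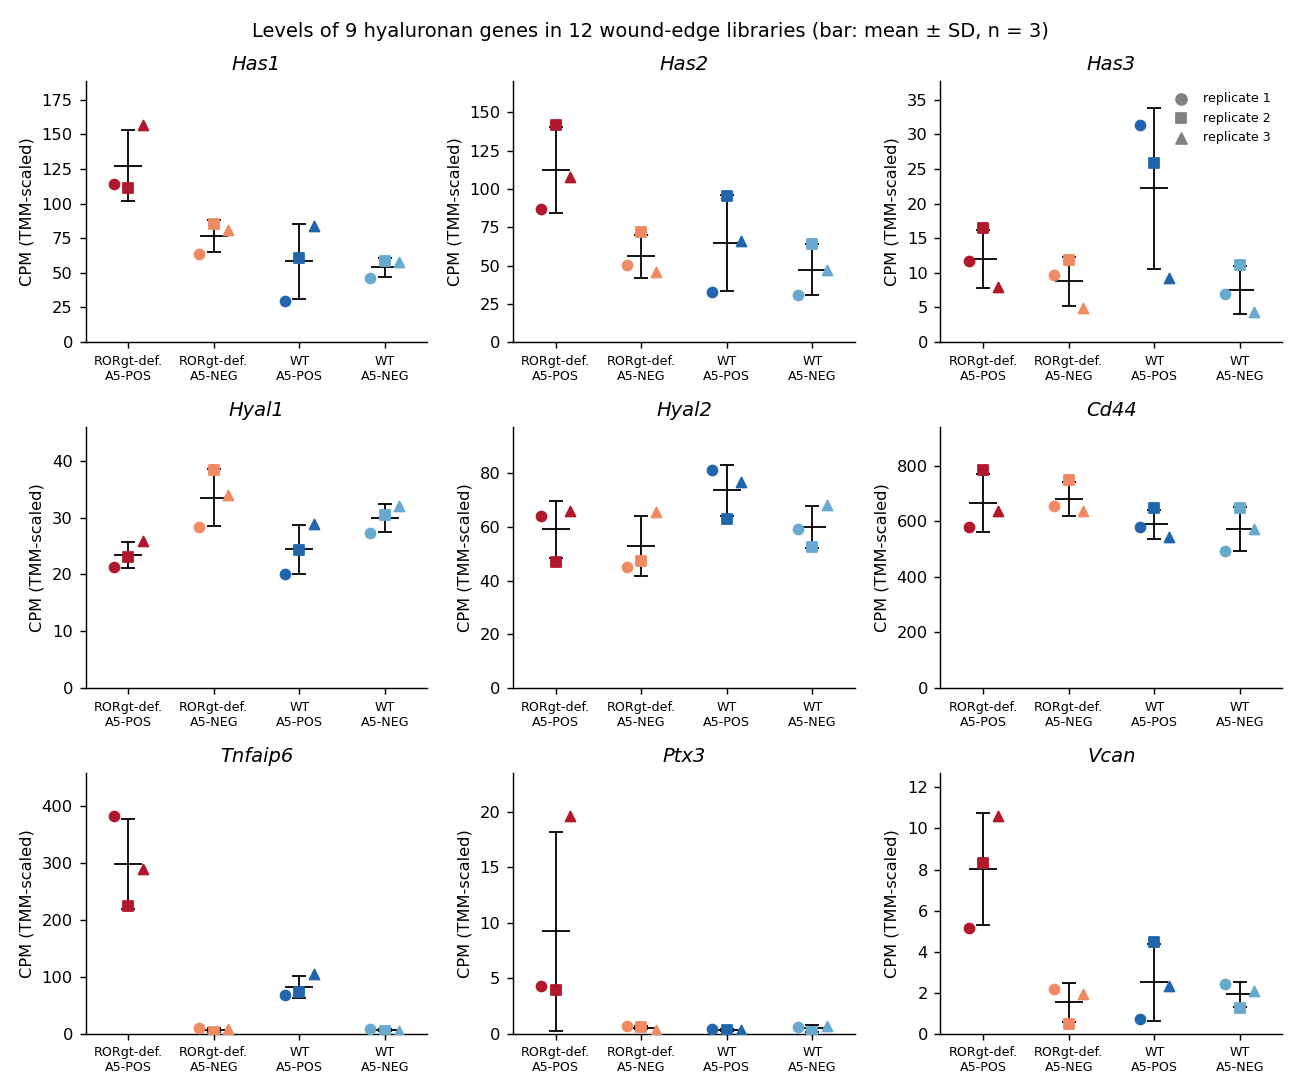
TMM-scaled CPM (y axes from 0) of each member in the 12 libraries, by group; markers are libraries, shaped by replicate number, and black bars are means ± SD (n = 3). The RORgt-deficient A5-POS libraries are the highest 3 of all for Tnfaip6, Has1, Ptx3 and Vcan, and Cd44 stays between 493 and 784 CPM.

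In RORgt-deficient A5-POS cells both abundant synthases stood at their highest group means, and Has1 was above every other library in all 3. Has1 (GRCm38 chromosome 17, 17843323 to 17855205) had 114, 111 and 157 CPM in RORgt-deficient A5-POS, 63.9, 85.6 and 80.6 CPM in RORgt-deficient A5-NEG, 29.8, 60.9 and 84.1 CPM in WT A5-POS, and 46.3, 58.6 and 57.7 CPM in WT A5-NEG libraries. The other 3 groups overlapped one another, except that every RORgt-deficient A5-NEG library was above every WT A5-NEG library. Has1 differed by 0.73 ± 0.29 between RORgt-deficient A5-POS and A5-NEG cells (adjusted p = 0.174; with the replicate block 0.73 ± 0.21, adjusted p = 0.0338). Between RORgt-deficient and WT A5-POS cells it differed by 1.13 ± 0.30 (adjusted p = 0.178; block 1.21 ± 0.21, adjusted p = 0.0315). The difference between WT A5-POS and A5-NEG cells was 0.10 ± 0.29 (adjusted p = 0.865), and between RORgt-deficient and WT A5-NEG cells 0.50 ± 0.29 (adjusted p = 0.779).

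Both blocked Has1 calls depended on single libraries. The A5 call in RORgt-deficient mice ended without any one of 7 of the 12 libraries: RORgt-deficient A5-POS 1 (adjusted p = 0.168) or 3 (0.11), RORgt-deficient A5-NEG 1 (0.1), 2 (0.0656) or 3 (0.136), WT A5-POS 2 (0.0507) or WT A5-NEG 2 (0.0527). The genotype call in A5-POS cells ended without RORgt-deficient A5-POS 1, 2 or 3 (0.0649, 0.0836 and 0.075), WT A5-POS 1 or 2 (0.0653 and 0.0923) or WT A5-NEG 2 or 3 (0.0551 and 0.0534).

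Has2 (chromosome 15, 56665627 to 56694539), the main synthase of many mesenchymal cells and of stimulated keratinocytes, had 86.8, 142 and 108 CPM in RORgt-deficient A5-POS and 50.3, 72.2 and 45.5 CPM in RORgt-deficient A5-NEG libraries. It had 32.9, 95.2 and 66.3 CPM in WT A5-POS and 30.7, 64 and 47.3 CPM in WT A5-NEG libraries. The RORgt-deficient A5-POS libraries lay above both A5-NEG groups but overlapped WT A5-POS, and replicate 1 was the lowest of its group in 3 of the 4 groups. The A5 difference in RORgt-deficient mice was 1.0 ± 0.36 (adjusted p = 0.137), and it was called with the replicate block (0.98 ± 0.18, adjusted p = 0.00558), also without any single library (highest adjusted p = 0.0382). The genotype difference in A5-POS cells was 0.79 ± 0.36 (adjusted p = 0.332; block 0.87 ± 0.18, adjusted p = 0.0388). That blocked call ended without any one of 8 libraries: RORgt-deficient A5-POS 1, 2 or 3 (0.0816, 0.128 and 0.0855), RORgt-deficient A5-NEG 2 (0.0512), WT A5-POS 1 or 2 (0.158 and 0.0942) or WT A5-NEG 2 or 3 (0.0613 and 0.0649). The A5 difference of Has2 in WT mice was 0.45 ± 0.36 (adjusted p = 0.495).

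Has3 (chromosome 8, 106870242 to 106884566), a synthase typical of epithelia, had another order of groups, with its highest mean in WT A5-POS cells. It had 11.7, 16.4 and 8 CPM in RORgt-deficient A5-POS, 9.69, 11.8 and 4.92 CPM in RORgt-deficient A5-NEG, 31.4, 25.9 and 9.22 CPM in WT A5-POS, and 7.01, 11.2 and 4.37 CPM in WT A5-NEG libraries. The high WT A5-POS mean came from 2 of its 3 libraries, and in every group replicate 3 was the lowest. Has3 was higher by 1.56 ± 0.48 in A5-POS than in A5-NEG cells of WT mice (adjusted p = 0.102), a call with the replicate block (1.52 ± 0.22, adjusted p = 0.00218) that held without any single library (highest 0.0149). Between RORgt-deficient and WT A5-POS cells the difference was -0.89 ± 0.47 (adjusted p = 0.39; block -0.80 ± 0.21, adjusted p = 0.0605). In RORgt-deficient mice the A5 difference was 0.44 ± 0.47 (adjusted p = 0.608).

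Summed per kilobase of exon, synthase transcripts came to 56.6 ± 7.71 in RORgt-deficient A5-POS, 31.6 ± 5.51 in RORgt-deficient A5-NEG, 31.7 ± 10.9 in WT A5-POS and 24.4 ± 5.62 CPM per kb in WT A5-NEG cells (SD, n = 3). The RORgt-deficient A5-POS libraries (47.7 to 61.3) lay above all others, the highest of which reached 40. Has1 and Has2 together supplied most of the sum in every group. Has1 took 50.1 ± 8.36%, 54.1 ± 5.85%, 40 ± 10.5% and 50.2 ± 5.98% of it in those 4 groups, in the same order. Has3 took 3.37 ± 1.17%, 4.35 ± 1.52%, 13.2 ± 11% and 4.85 ± 1.8%, and its share in the WT A5-POS libraries was 25.5%, 10.2% and 4.05%. Exons of Has2 and Has3 overlap genes on the opposite strand (Has2os over 182 bases, Chtf8 over 352 bases), and whether counting used strand is not given in the sources used here, so a part of their counts is uncertain. Has2os itself had 31 to 116 counts and Chtf8 1223 to 3210.

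**Figure D2:**
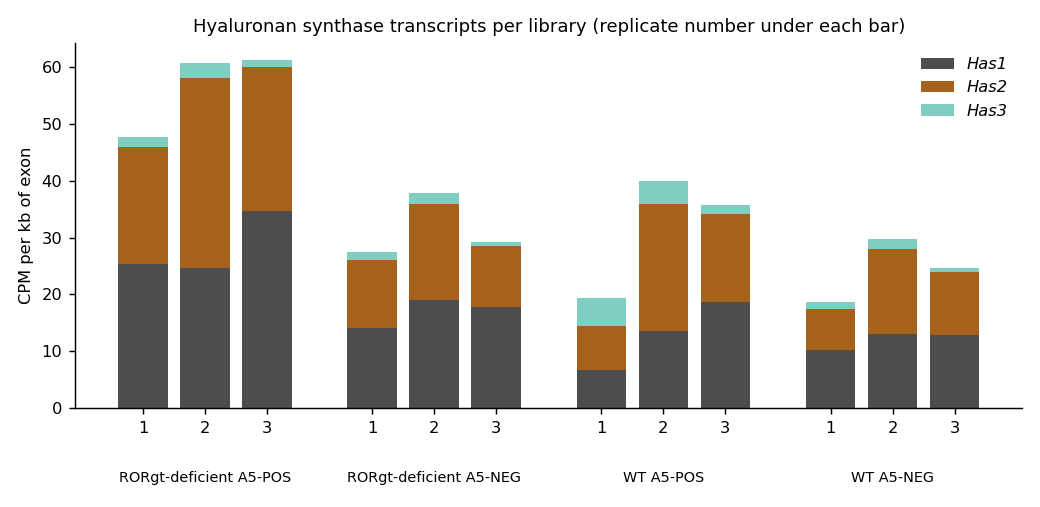
Summed synthase level (CPM per kilobase of exon) in each library, stacked as Has1, Has2 and Has3; bars are single libraries, numbered by replicate. The RORgt-deficient A5-POS bars reach 47.7 to 61.3, and the Has3 part is widest in WT A5-POS replicate 1 (25.5%).

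The hyaluronidases varied less than the synthases. Hyal1 (chromosome 9, 107576927 to 107581710), a lysosomal enzyme that cuts hyaluronan into short chains, had 21.2, 23.1 and 25.8 CPM in RORgt-deficient A5-POS and 28.3, 38.3 and 33.9 CPM in RORgt-deficient A5-NEG libraries. It had 20.1, 24.3 and 28.8 CPM in WT A5-POS and 27.3, 30.4 and 32 CPM in WT A5-NEG libraries. Of the groups compared only the RORgt-deficient pair did not overlap, with a difference of -0.52 ± 0.16 (adjusted p = 0.093). With the replicate block Hyal1 fell by 0.51 ± 0.11 on the log2 scale (adjusted p = 0.0129), and without RORgt-deficient A5-POS library 3 that call ended (0.055). In WT mice the A5 difference was -0.30 ± 0.16 (adjusted p = 0.323). Hyal1 shares 1920 bases of exon with Naa80 and 159 with Hyal3 on its own strand, so its counts are uncertain too; Naa80 had 382 to 1001 counts.

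Hyal2 (chromosome 9, 107567945 to 107572779), an enzyme tethered to the cell surface, had 64.2, 47 and 66 CPM in RORgt-deficient A5-POS and 45.2, 47.4 and 65.6 CPM in RORgt-deficient A5-NEG libraries. It had 81.1, 62.8 and 76.9 CPM in WT A5-POS and 59.2, 52.7 and 68 CPM in WT A5-NEG libraries, and all 4 groups overlapped one another. Its differences were 0.16 ± 0.18 (A5 in RORgt-deficient mice), 0.30 ± 0.18 (A5 in WT mice), -0.32 ± 0.18 (genotype in A5-POS cells) and -0.19 ± 0.18 (genotype in A5-NEG cells), with adjusted p of 0.628, 0.378, 0.424 and 0.811. Hyal1 made up 25.9 ± 3.85% of the hyaluronidase sum in RORgt-deficient A5-POS, 35.9 ± 5.16% in RORgt-deficient A5-NEG, 22.5 ± 4.15% in WT A5-POS and 30.4 ± 2.65% in WT A5-NEG cells, per kilobase of exon.

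Cd44 (chromosome 2, 102811141 to 102901665), the chief hyaluronan receptor of keratinocytes, was abundant and nearly level. It had 579, 784 and 638 CPM in RORgt-deficient A5-POS, 654, 750 and 636 CPM in RORgt-deficient A5-NEG, 579, 647 and 543 CPM in WT A5-POS, and 493, 650 and 572 CPM in WT A5-NEG libraries. Every group overlapped every other. The A5 differences were -0.03 ± 0.15 in RORgt-deficient and 0.05 ± 0.15 in WT mice, and the genotype differences 0.18 ± 0.15 in A5-POS and 0.25 ± 0.15 in A5-NEG cells, none of them called with or without the block.

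Tnfaip6 had the largest A5 difference of the 9 members in both genotypes. It encodes TSG-6, a secreted protein with a hyaluronan-binding link module that is induced by inflammatory cytokines in many cell types. Tnfaip6 (chromosome 2, 52038009 to 52056686) had 382, 224 and 289 CPM in RORgt-deficient A5-POS and 10.3, 3.06 and 8.25 CPM in RORgt-deficient A5-NEG libraries. In WT A5-POS libraries it had 68.1, 73.7 and 104 CPM, and in WT A5-NEG libraries 8.16, 5.23 and 4.97 CPM. Every A5-POS library was far above every A5-NEG library, and the RORgt-deficient A5-POS libraries were above all WT A5-POS libraries. The sum of 12 fibroblast markers was also higher in A5-POS than in A5-NEG libraries, and higher in RORgt-deficient than in WT A5-POS libraries. In A5-NEG libraries that sum ran from 801 to 1836 CPM in RORgt-deficient and from 1446 to 2131 CPM in WT mice. Most of it there was Postn, which wound epithelium also makes (means of 1007 and 1675 CPM). Without Postn the A5-NEG sums ran from 58 to 504 CPM in RORgt-deficient and from 80.4 to 226 CPM in WT mice.

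Tnfaip6 rose by 5.36 ± 0.43 on the log2 scale in A5-POS cells of RORgt-deficient mice, 41.1-fold (adjusted p = 3.18e-05), and by 3.74 ± 0.40 in A5-POS cells of WT mice, 13.3-fold (adjusted p = 0.000459). Leaving out any single library kept both calls, with values of 4.98 to 5.70 and of 3.49 to 4.01. Between RORgt-deficient and WT A5-POS cells Tnfaip6 averaged 299 ± 79.4 and 82 ± 19.5 CPM, 3.64-fold, a difference of 1.86 ± 0.37 (adjusted p = 0.178). With the replicate block it was called (1.81 ± 0.27, adjusted p = 0.0175), and the call ended without RORgt-deficient A5-POS 2 (0.0878) or 3 (0.056) or WT A5-POS 1 (0.0553) or 2 (0.0546). In A5-NEG cells the genotypes averaged 7.21 ± 3.73 CPM in RORgt-deficient and 6.12 ± 1.77 CPM in WT mice, a difference of 0.24 ± 0.37 (adjusted p = 0.88).

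The starts of Tnfaip6 and Cd44 are shown because they contrast the member that moved most with integrin α5 and the one that moved least, and because they are the members whose start windows held a searched motif. The sequences are the 250 bases before the RefSeq start (GRCm38.p6), written 5′ to 3′ on the gene's strand, with the motif in capitals.
Tnfaip6, chr2:52037863-52038112, plus strand: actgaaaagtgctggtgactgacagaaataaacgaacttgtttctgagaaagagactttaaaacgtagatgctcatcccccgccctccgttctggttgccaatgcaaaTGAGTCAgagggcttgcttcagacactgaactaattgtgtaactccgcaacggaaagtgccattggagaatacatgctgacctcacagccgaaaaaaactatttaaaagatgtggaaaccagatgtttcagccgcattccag
Cd44, chr2:102901666-102901915, minus strand: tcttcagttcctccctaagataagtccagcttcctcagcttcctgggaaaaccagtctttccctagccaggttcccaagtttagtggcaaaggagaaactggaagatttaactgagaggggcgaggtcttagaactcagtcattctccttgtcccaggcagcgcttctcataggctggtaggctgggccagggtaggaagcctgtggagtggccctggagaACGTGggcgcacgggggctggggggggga

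The motifs searched on both strands, in windows of 250 bases before and 50 after the start, were TGANTCA, which the AP-1 factors bind, and ACGTG, the core of the hypoxia response element; no match of one overlapped the other in these windows. Of the 9 members, 7 had a window, and Has2 and Has3 had none. The Tnfaip6 window held 1 AP-1 match, beginning 142 bases before the start, and the Cd44 window 1 ACGTG, beginning 29 bases before it. Has1, Hyal1, Hyal2, Ptx3 and Vcan had no match of either. Among all 32851 windows of this length, 7.81% held TGANTCA and 19.6% held ACGTG, so a match describes these letters and shows no binding.

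Ptx3 was under 1 CPM in 9 libraries and above it in the 3 of RORgt-deficient A5-POS cells. It encodes pentraxin 3, a secreted pattern-recognition protein that binds TSG-6-modified hyaluronan. Ptx3 (chromosome 3, 66219910 to 66225805) had 4.26, 3.9 and 19.6 CPM in RORgt-deficient A5-POS libraries (224, 128 and 750 counts) and 0.692, 0.601 and 0.381 CPM in RORgt-deficient A5-NEG libraries. It had 0.455, 0.33 and 0.303 CPM in WT A5-POS and 0.609, 0.141 and 0.714 CPM in WT A5-NEG libraries, which is 5 to 34 counts in WT libraries. The RORgt-deficient A5-POS libraries were all above the other 9, and library 3 held most of the signal.

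Ptx3 rose by 4.02 ± 0.70 in A5-POS cells of RORgt-deficient mice (adjusted p = 0.00547; without RORgt-deficient A5-POS library 3 it rose by 2.85, adjusted p = 0.0169, and with the block by 3.70 ± 0.62). In WT mice the A5 difference was -0.42 ± 0.70 (adjusted p = 0.762). Between RORgt-deficient and WT A5-POS cells the difference was 4.64 ± 0.73 (adjusted p = 0.105; block 4.37 ± 0.64, adjusted p = 0.0164). The blocked call ended without RORgt-deficient A5-POS 2 (0.0794) or 3 (0.0526; the value was then 3.51) or WT A5-POS 1 (0.0746) or 2 (0.0546). In A5-NEG cells the genotypes differed by 0.20 ± 0.68 (adjusted p = 0.945).

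Vcan (chromosome 13, 89655312 to 89742509), the large proteoglycan versican of provisional matrix, had the lowest level per kilobase. It had 5.17, 8.31 and 10.6 CPM in RORgt-deficient A5-POS and 2.19, 0.458 and 1.94 CPM in RORgt-deficient A5-NEG libraries. In WT A5-POS libraries it had 0.718, 4.47 and 2.32 CPM, and in WT A5-NEG libraries 2.44, 1.24 and 2.06 CPM. The RORgt-deficient A5-POS libraries were above all 9 others, and the rest overlapped. The A5 difference in RORgt-deficient mice was 2.38 ± 0.65 (adjusted p = 0.0549; block 2.33 ± 0.66, adjusted p = 0.0353). Without any one of 8 libraries the blocked call ended, at adjusted p of 0.0518 to 0.127: RORgt-deficient A5-POS 1, 2 or 3, RORgt-deficient A5-NEG 1 (with a value of 2.98), 2 (with a value of 1.72) or 3, and WT A5-NEG 2 or 3. The genotype difference in A5-POS cells was 1.69 ± 0.63 (adjusted p = 0.261; block 1.68 ± 0.65, adjusted p = 0.144), and without WT A5-POS 2 it was 2.42 (block 2.81). The A5 difference in WT mice was 0.37 ± 0.63 (adjusted p = 0.762).

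**Figure D3:**
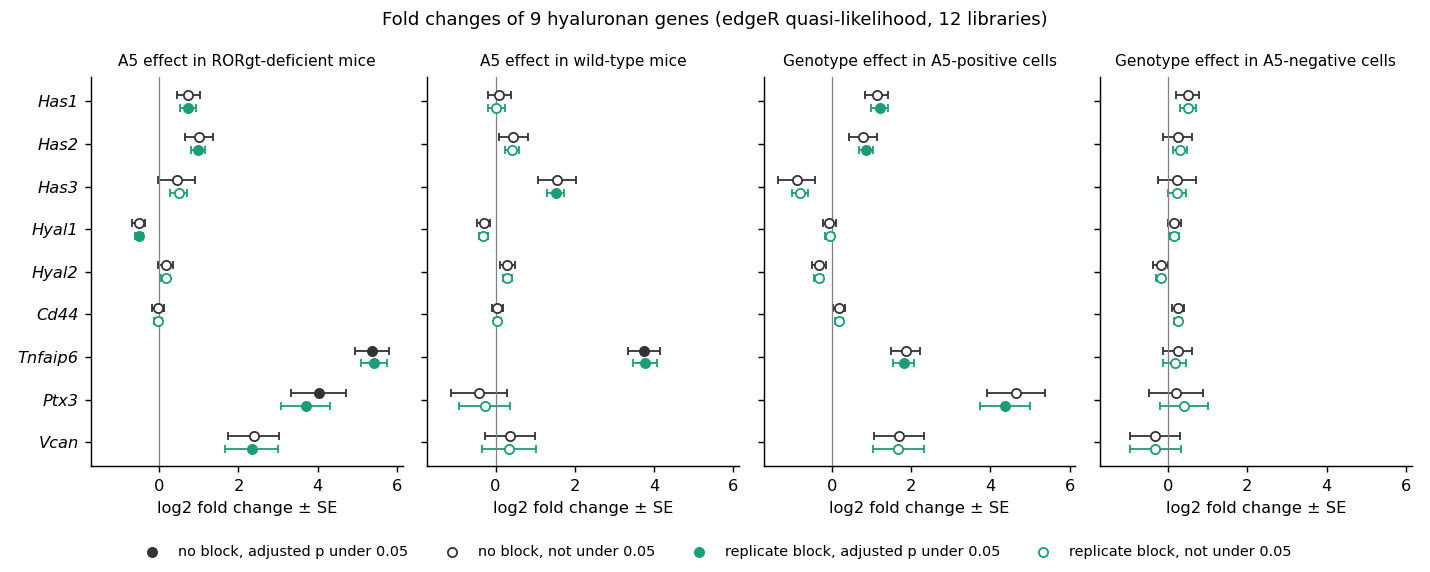
Log2 fold changes ± SE (x axes) of the members in 4 comparisons, A5-POS over A5-NEG and RORgt-deficient over WT; black is the fit without and green the fit with the replicate block, and filled points have an adjusted p under 0.05. Tnfaip6 is filled in both A5 panels (5.36 and 3.74 without the block), and no point is filled for the genotype in A5-NEG cells.

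Counted together, 2 members were called for A5 in RORgt-deficient mice (Tnfaip6 and Ptx3, both up), where 5.52% of all tested genes were called. With the replicate block 6 were called, with Has1, Has2 and Vcan also up and Hyal1 down, beside 17.6% of all genes. The levels of 6 members did not overlap between these groups, 5 higher and 1 lower, beside 25.6% of all genes. For A5 in WT mice 1 member was called (Tnfaip6), beside 3.45% of all genes. With the block there were 2 (Has3 and Tnfaip6, both up), beside 14.4%, and 1 member did not overlap, beside 25% of all genes.

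For the genotype in A5-POS cells no member was called by edgeR without the block, beside 0.006% of all genes, which is 1 gene. An unadjusted p under 0.05 was found for 5 members in that fit, and the share of all genes with such a p is not given. DESeq2 called 3 members, beside 493 genes in all. With the block 4 were called, all up (Has1, Has2, Tnfaip6 and Ptx3), beside 4.02% of all genes; 4 members did not overlap, beside 18.1%. For the genotype in A5-NEG cells edgeR called no member with or without the block, beside 0.006% of genes in each fit. An unadjusted p under 0.05 was found for 0 members without and 2 with the block, again with no share of all genes given. DESeq2 called 0 members, beside 21 genes in all, and Has1 alone did not overlap, beside 15.6%. The median difference of the 9 members was 0.73 for A5 in RORgt-deficient mice, 0.30 for A5 in WT mice, 0.79 for the genotype in A5-POS cells and 0.23 for the genotype in A5-NEG cells, where the median of all genes was -0.00, 0.03, 0.00 and 0.00. The A5 and genotype comparisons share libraries in pairs, so their values are not separate evidence.

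The difference between the A5 effects, RORgt-deficient minus WT, was tested as an interaction, and 0% of genes were called in either fit. By edgeR it was 4.44 ± 0.97 for Ptx3, 1.62 ± 0.52 for Tnfaip6, 2.01 ± 0.89 for Vcan and -1.12 ± 0.67 for Has3, each with an adjusted p of 1. Without RORgt-deficient A5-POS 3 the value of Ptx3 was 3.26, and without WT A5-POS 2 that of Vcan was 2.77. Of the members, 3 had an unadjusted p under 0.05 by edgeR without and 6 with the block. The share of all genes with such a p is not given, so no result about the members is read from these counts. DESeq2 called 1 member, Ptx3 (4.49 ± 0.95, adjusted p = 0.0178), beside 8 genes in all. So a larger A5 effect on these genes in RORgt-deficient mice was not shown by the edgeR fit.

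Fibroblast markers moved with the same contrasts. Without Postn, which wound epithelium also makes (left out after its levels were seen), 11 markers summed to 14899, 9631 and 15916 CPM in RORgt-deficient A5-POS and 504, 58 and 79.8 CPM in RORgt-deficient A5-NEG libraries. They summed to 3752, 5806 and 8003 CPM in WT A5-POS and 196, 80.4 and 226 CPM in WT A5-NEG libraries. Of the full list of 12, 10 were called up for A5 in each genotype (median differences of 5.71 and 4.92). For the genotype in A5-POS cells 1 was called with the block and none without it (median 1.12), and in A5-NEG cells none in either fit, with a median of 0.04. The RORgt-deficient A5-POS sums were all above the WT A5-POS sums. All markers but Twist2 in 1 library were above 0 in every library.

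Tnfaip6 equalled 2.57%, 2.33% and 1.82% of the 11-marker sum in RORgt-deficient A5-POS libraries and 1.81%, 1.27% and 1.3% in WT A5-POS libraries. It equalled 2.04%, 5.29% and 10.3% of the sum in RORgt-deficient A5-NEG and 4.16%, 6.5% and 2.2% in WT A5-NEG libraries. Every RORgt-deficient A5-POS ratio was above every WT A5-POS ratio, as were the levels of Tnfaip6, and the closest ratios were 1.82% and 1.81%. Has1 equalled 0.768%, 1.16% and 0.984% of the sum in RORgt-deficient A5-POS and 0.794%, 1.05% and 1.05% in WT A5-POS libraries. Has2 equalled 0.583%, 1.47% and 0.676% in RORgt-deficient A5-POS and 0.878%, 1.64% and 0.829% in WT A5-POS libraries. The Has1, Has2 and Vcan ratios of these groups overlapped, and those of Ptx3 did not (lowest 0.0286% against highest 0.0121%). Has1 and Has2 kept 46.3 to 85.6 and 30.7 to 72.2 CPM in A5-NEG libraries, where the marker sum was lowest. Ptx3 stayed under 0.5 CPM in WT A5-POS libraries, whose marker sum was 3752 to 8003 CPM. The part of the fibroblast markers in the A5 and genotype differences of the members was not tested.

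**Figure D4:**
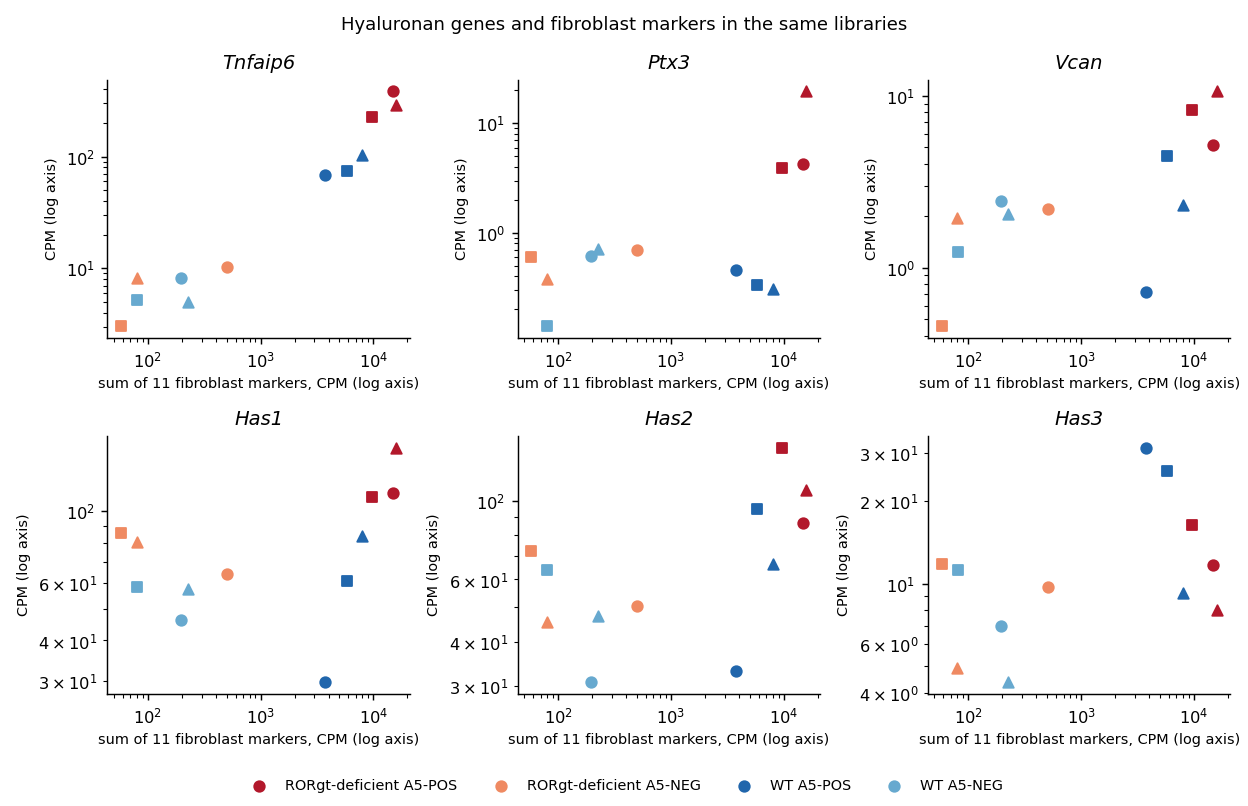
TMM-scaled CPM of 6 members (y, log axis) against the sum of 11 fibroblast markers in the same library (x, CPM, log axis); points are the 12 libraries, coloured by group and shaped by replicate number as in the plot of levels. Tnfaip6 and the marker sum are both far higher in A5-POS than in A5-NEG libraries, Ptx3 is high only in the RORgt-deficient A5-POS libraries, and Has1, Has2 and Has3 are present where the sum is lowest.

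Over the 12 libraries, which share groups and runs, the patterns most like Tnfaip6 among the tested genes included those of Adamts2 and Ms4a4d (Pearson r of log2 CPM 0.99 each). Has2 was most like Tgfb2 (0.99), its own antisense gene Has2os (0.96) and Nphp4 (0.94), and Has1 most like Rnf122 (0.94), Il11 (0.91) and Dclk1 (0.90). Has3 was most like Pitpna (0.96), Bnip3 (0.95) and Myof (0.93). For Ptx3 these genes were Tnfrsf4 (0.91), Tent2 (0.90) and Rbm48 (0.89), and for Vcan Gria3 (0.92), C4b (0.90) and Cp (0.90). Cd44 was most like Ankrd28, Fat1 and Jph3 (0.96 each), Hyal1 most like Pisd-ps1 (0.97), Slc52a3 (0.96) and Muc15 (0.95), and Hyal2 most like Tarbp2 (0.97), Pgd (0.96) and Gsdmc (0.96). Within the set, Has1 and Has2 had an r of 0.79, Tnfaip6 and Vcan 0.72, Has1 and Ptx3 0.72, Ptx3 and Vcan 0.71, and Tnfaip6 and Hyal1 -0.79. These are descriptions of 12 points.

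Beyond the members, 48 other genes of the hyaluronan pathway were listed, and 34 were tested. The untested ones were Stab2, Habp2, Hapln1, Hapln2, Acan, Bcan, Ncan, Itih1, Itih3, Itih4, Ambp, Hyal4, Hyal5 and Spam1. Of the 34, 2 were called up and none down for A5 in RORgt-deficient mice, beside 5.52% of all tested genes (5 up and 3 down with the block, beside 17.6%). For A5 in WT mice 2 were called up and 1 down, beside 3.45% (4 up and 3 down with the block, beside 14.4%). For the genotype in A5-POS cells edgeR called none without the block, beside 0.006%, and 3 up and 1 down with it, beside 4.02%. In edgeR's fit without the block 8 had an unadjusted p under 0.05, and DESeq2 called 2, beside 493 genes in all. In A5-NEG cells edgeR called none in either fit, beside 0.006% in each (4 and 8 had an unadjusted p under 0.05, and DESeq2 called 0). For these counts of unadjusted p the share of all genes is not given either. The median differences of the 34 genes were 0.06, 0.11, 0.13 and 0.16 in these 4 comparisons.

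Hmmr and Mmp14 were called in both A5 comparisons. Hmmr, a hyaluronan-binding protein that also works on the mitotic spindle, had 32.2, 19.8 and 30 CPM in RORgt-deficient A5-POS and 8.15, 5.47 and 8.22 CPM in RORgt-deficient A5-NEG libraries, and it rose by 1.91 ± 0.24 (edgeR adjusted p = 0.000651). It had 34.9, 29.8 and 32.9 CPM in WT A5-POS and 17, 13 and 10.3 CPM in WT A5-NEG libraries, and it rose by 1.27 ± 0.24 (adjusted p = 0.0131), a call that ended without WT A5-NEG 2 (0.057) or 3 (0.0776) but not with the block. Mmp14, a membrane protease that can cut CD44, had 550, 421 and 560 CPM in RORgt-deficient A5-POS and 207, 156 and 147 CPM in RORgt-deficient A5-NEG libraries, and it rose by 1.59 ± 0.20 (adjusted p = 0.000602). It had 307, 394 and 387 CPM in WT A5-POS and 172, 173 and 117 CPM in WT A5-NEG libraries, and it rose by 1.24 ± 0.20 (adjusted p = 0.00606). No A5-POS library of either gene overlapped the A5-NEG libraries of its genotype, and Mmp14 is also made by fibroblasts.

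Itih5, of the inter-α-inhibitor heavy chain family, averaged 21.4 ± 4.82 CPM in WT A5-POS and 41 ± 9.2 CPM in WT A5-NEG cells and fell by 0.94 ± 0.23 (adjusted p = 0.04996). That call ended without any one of 9 of the 12 libraries (RORgt-deficient A5-POS 3, all RORgt-deficient A5-NEG, all WT A5-POS, and WT A5-NEG 2 or 3; adjusted p of 0.0515 to 0.208) and with the block (adjusted p = 0.00487) it held without any library. In RORgt-deficient mice Itih5 averaged 34 CPM in A5-POS and 58.6 CPM in A5-NEG cells, a call with the block (-0.82 ± 0.16, adjusted p = 0.00615) that held without any library, and not without the block (-0.79, adjusted p = 0.0756). The blocked genotype call in A5-POS cells (0.67 ± 0.16, adjusted p = 0.0442) ended without 10 of the 12 libraries one at a time, the exceptions being RORgt-deficient A5-NEG 1 and 2.

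In edgeR's fit of all libraries none of the 9 precursor genes passed without the block. With it, 1 passed up and 1 down in each A5 comparison, 2 up for the genotype in A5-POS cells and none in A5-NEG cells. The gene that passed down was Ogt both times, which is in this list but uses UDP-N-acetylglucosamine for another purpose. DESeq2, without a block, called Ugdh (adjusted p = 0.0205) and Pgm3 (0.041) for A5 in RORgt-deficient mice. It also called Pgm3 (0.0323) for A5 in WT mice and Gfpt2 (0.0356) for the genotype in A5-POS cells. Ugdh, which makes UDP-glucuronic acid, averaged 128 CPM in RORgt-deficient A5-POS and 93.7 CPM in RORgt-deficient A5-NEG cells (block 0.45 ± 0.11, adjusted p = 0.0191), and 108 CPM in WT A5-POS and 95.5 CPM in WT A5-NEG cells. Its call ended without RORgt-deficient A5-POS 3 (0.108) or A5-NEG 2 (0.0772) or 3 (0.087). Uap1, which completes UDP-N-acetylglucosamine, averaged 529 CPM in RORgt-deficient A5-POS and 306 CPM in WT A5-POS cells (block 0.78 ± 0.14, adjusted p = 0.0331). Gfpt2, which feeds the same branch, averaged 49.1 CPM in RORgt-deficient A5-POS and 23.6 CPM in WT A5-POS cells (block 1.09 ± 0.21, adjusted p = 0.0362). Without RORgt-deficient A5-POS 1, 2 or 3, WT A5-POS 1 or 2, or WT A5-NEG 2 or 3 both calls ended, and that of Gfpt2 also without WT A5-POS 3 (adjusted p of 0.0512 to 0.158). In A5-NEG cells Uap1 and Gfpt2 had blocked differences of 0.59 ± 0.14 and 1.08 ± 0.21 (adjusted p = 0.157 and 0.129), so a genotype difference particular to A5-POS cells was not shown.

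Stab1, a scavenger receptor of macrophages and endothelium that binds hyaluronan, averaged 16.1 CPM in RORgt-deficient A5-POS and 45.8 CPM in WT A5-POS cells (block -1.53 ± 0.29, adjusted p = 0.036), and 14.7 CPM in WT A5-NEG cells (A5 in WT mice, block 1.74 ± 0.30, adjusted p = 0.00514). The A5 call held without any library, while the genotype call ended without any of 8: all RORgt-deficient A5-POS, RORgt-deficient A5-NEG 2, WT A5-POS 1 or 2, and WT A5-NEG 2 or 3 (adjusted p of 0.05004 to 0.147). The endothelial markers leaned the same way without a call (median differences of 5 tested genes of -2.16 for the genotype in A5-POS cells and 1.37 for A5 in WT mice). Their sum was 38.5 CPM in WT A5-POS 1, 1.95 and 3.36 CPM in the other WT A5-POS libraries and 3.61 to 4.96 CPM in RORgt-deficient A5-POS libraries, while Stab1 had 62.3 CPM in WT A5-POS 1 and 41 and 34 CPM in the others. The 12 macrophage markers, also without a call, had medians of 0.15 for the genotype in A5-POS cells and -2.10 for A5 in WT mice. The part of either marker list in the Stab1 differences was not tested. Layn, a small membrane receptor for hyaluronan, had 174, 36 and 75 counts in RORgt-deficient A5-POS and 30, 0 and 1 counts in RORgt-deficient A5-NEG libraries (block 4.06 ± 0.93, adjusted p = 0.0145). Its call ended without RORgt-deficient A5-POS 1 (0.0543) or 3 (0.0596) or A5-NEG 3 (0.0551), and without A5-NEG 1 the value was 6.48. In edgeR's fit of all libraries Ezr, Ogt, Pgm3 and Hexa also passed with the block and not without it: Ezr and Ogt lower in A5-POS cells of both genotypes, Pgm3 higher in WT A5-POS cells, and Hexa, a lysosomal enzyme, higher in RORgt-deficient A5-POS cells (adjusted p = 0.0499996).

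Ezr averaged 901 CPM in RORgt-deficient A5-POS and 1244 CPM in RORgt-deficient A5-NEG cells (block -0.47 ± 0.10) and links CD44 to actin. Its call there ended without RORgt-deficient A5-POS 3, and in WT mice (-0.38 ± 0.10) without WT A5-POS 1 or 2 or WT A5-NEG 2 or 3. Ogt (-0.49 ± 0.12 in RORgt-deficient, -0.42 ± 0.12 in WT mice), which uses UDP-N-acetylglucosamine for another purpose, lost its call without 3 and without 7 libraries, Pgm3 without 9 and Hexa without 9 of the 12. Without the block, Ogt was called in RORgt-deficient mice once RORgt-deficient A5-POS 2 was left out (0.0397). Pgm3 was called there without RORgt-deficient A5-POS 2 (0.0451) or WT A5-POS 3 (0.0382), and in WT mice without WT A5-POS 3 (0.0241). Of the proteins outside the set that depolymerise or bind hyaluronan for breakdown, Cemip2 averaged 109 CPM in RORgt-deficient A5-POS, 122 in RORgt-deficient A5-NEG, 80.8 in WT A5-POS and 98.5 in WT A5-NEG cells, and Cemip 0.532, 0.642, 0.649 and 0.483 CPM, with no call in any comparison for either gene.

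**Figure D5:**
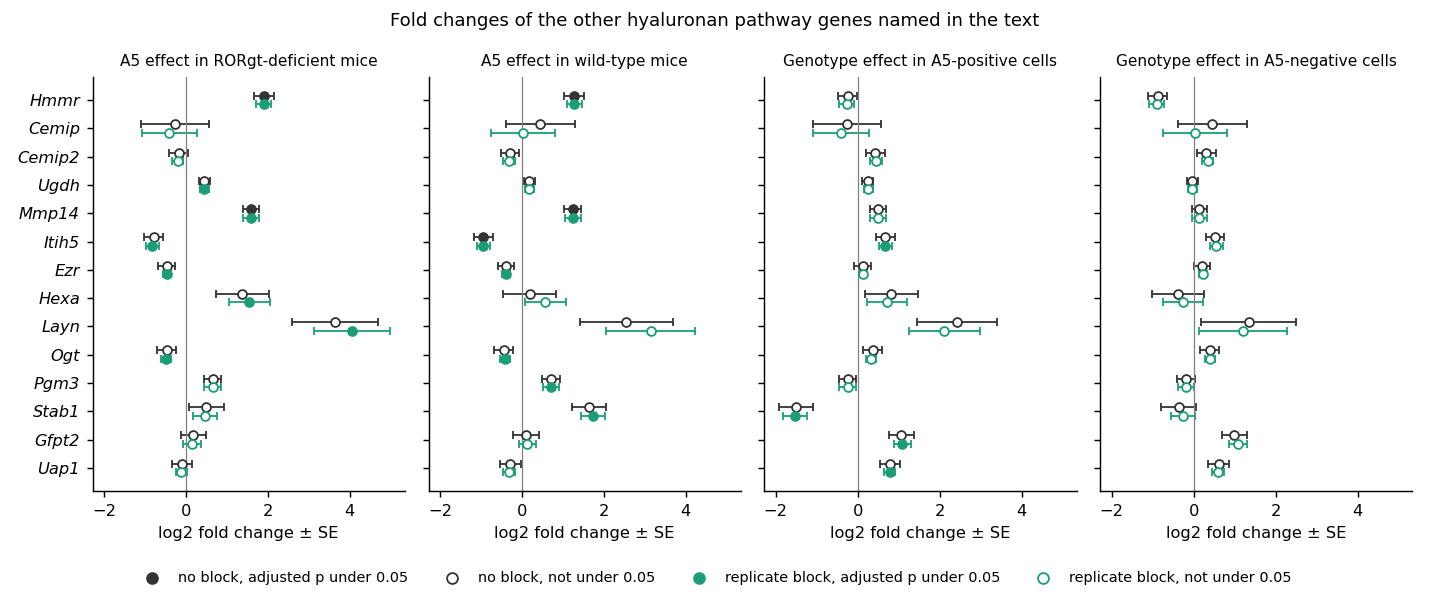
Log2 fold changes ± SE (x axes) of the pathway genes named in the text, in the same 4 comparisons; black is the fit without and green the fit with the replicate block, and filled points have an adjusted p under 0.05. Hmmr and Mmp14 are filled in both A5 panels without the block, and the genotype panel of A5-POS cells holds filled points of the blocked fit only.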

How the data were processed

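The values are the authors' deposited counts, whole numbers of reads for each symbol with no normalization. SMART-Seq v4 and ThruPLEX kits were used, per the labels' protocols. Per the submitters' processing notes the tools were bcl2fastq, Trimmomatic 0.36, STAR and featureCounts, on mm10 (GRCm38). Strand setting, annotation release and multi-mapping rule: not given in the sources used here. Of 55341 rows, 26 whose symbols had become dates (0.11% to 0.128% of a library's counts) were left out, and the other 55315 matched GENCODE M21, the source of gene positions and exon lengths. No pair of libraries within a group was alike to within counting error.

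Tests used edgeR 4.0.16 (R 4.3.3): TMM factors, filterByExpr by group (16677 genes), 1 model of the 4 groups over 12 libraries, the quasi-likelihood F test and Benjamini-Hochberg adjustment over all genes in each comparison. An SE is the log2 change over the square root of F. The edgeR fit without the block was tested on simulated counts, and the blocked and other alternative fits were not. Those counts were drawn without any effect of the replicate number, so they do not show how that fit behaves on paired libraries. CPM per kb divides TMM-scaled CPM by the gene's merged exon length. P-values reflect variation among pooled samples of 2 or 3 mice, which may in part be technical.

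Residuals after group means (9071 genes) correlated above 0.1 in each of the 18 same-numbered pairs (0.153 to 0.722), and in 3 of 36 pairs of unlike number. The numbers, taken from the titles, therefore pair the libraries.

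The members, the lists of pathway and marker genes and the rule for naming genes were chosen with earlier results of these data known. The rule takes every member, Hmmr, Cemip, Cemip2 and Ugdh, up to 6 called pathway genes per comparison with the smallest p, and the 3 tested genes most correlated with each member; genes that edgeR called with the block and not without it were added after their values were seen. Some items that the rule takes are not reported here. Alternatives were DESeq2 1.42.0, RLE size factors in edgeR, no filter, CPM of at least 5 in 3 libraries, the replicate block, a fit of the 6 libraries compared, and each library left out. Leaving out each library with the block was added after seeing the data. Start windows are from RefSeq (GRCm38.p6).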

Additional observations from a re-analysis of the deposited data

Results flagged for a closer look

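For 2 members the same-numbered libraries of the genotypes differed in opposite directions in the 2 sorted fractions. Has3 was lower in every RORgt-deficient A5-POS library than in the WT A5-POS library of its number (log2 ratios of -1.42 to -0.20) and higher in every RORgt-deficient A5-NEG library than in its WT counterpart (0.08 to 0.47). Vcan was higher in every RORgt-deficient A5-POS library (0.89 to 2.85) and lower in every RORgt-deficient A5-NEG library (-1.44 to -0.09). Every member was searched for such a pattern, between the fractions and between the genotypes. The share of all tested genes with such a pattern is not given, so no result about the members is read from it. The ratios themselves were not tested. The interaction in edgeR's quasi-likelihood fit, which tests the difference between fractions, was -1.12 ± 0.67 for Has3 and 2.01 ± 0.89 for Vcan, with an adjusted p of 1 for each.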

How the results depend on the processing

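For A5 in RORgt-deficient mice the 921 called genes became 1723 with DESeq2 and 2937 with the replicate block, and 466 to 1731 without single libraries. The 2 called members became 4 with DESeq2, 4 with no filter, 1 with the stricter filter (Ptx3 was then not tested), 6 with the block and 2 to 4 without single libraries; the 2 pathway genes became 6 with DESeq2, 4 with no filter, 8 with the block and 2 to 5. For A5 in WT mice the 575 genes became 1454 with DESeq2, 939 with no filter, 2394 with the block, 344 with the 6 compared libraries alone and 156 to 628 without single libraries. The 1 member became 2 with DESeq2, no filter or the block and 1 to 2 without single libraries; the 3 pathway genes became 5 with DESeq2, 7 with the block and 1 to 5.

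For the genotype in A5-POS cells the 1 gene became 493 with DESeq2, 67 with no filter, 670 with the block and 1 to 3 without single libraries. The 0 members became 3 with DESeq2, 3 with no filter and 4 with the block, and the 0 pathway genes 2, 1 and 4. For the genotype in A5-NEG cells the 1 gene became 21 with DESeq2, 7 with no filter and 1 to 2 without single libraries. For the interaction the 0 genes became 8 with DESeq2, 1 of them a member. The causes of these shifts were not tested.

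No value of a named gene past the threshold reversed its direction; of the single-gene values under the alternatives, 3162 kept direction and side of the threshold, 236 passed it only under the alternative, and 12, all of Itih5 and Hmmr for A5 in WT mice, no longer passed it. With the 6 compared libraries alone Itih5 had an adjusted p of 0.0894. Without WT A5-POS library 1, Has1 (adjusted p = 0.0359) and Vcan (0.0221) were called for A5 in RORgt-deficient mice without the block, and without WT A5-POS 3 so was Has3 in WT mice (0.0402). Depth limits Ptx3 and Vcan most, with as few as 5 and 16 counts in a library.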
